A study of Mus musculus with 11 samples.

Results

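The transcriptome of the wild-type mouse hindlimb (HL) bud at E10 was described from the 5 wild-type libraries of a series of 11. The members were taken by their titles alone, and the 6 libraries labelled Meis knockout were used only in counts over all 11. The authors' gene filter spanned all 11 libraries, and their scaling and set correction came before this selection. Each library was poly(A) RNA from both HLs of 1 embryo. WT S_252 (Meis1 and Meis2 wild type, female, 30 to 31 somites) and WT S_254 (1 mutant Meis1 allele with Meis2 wild type, female, 32 somites) came from litter 1 and were amplified with the Ovation RNA-Seq System. WT 1, WT 3 and WT 4 carry only the label wild type, at 30 to 31 somites, and were prepared with NEBNext Ultra II Directional. Their sex and litter were not labelled. In the knockout embryos the HoxB6CreER driver was induced with 4-hydroxy-tamoxifen, and whether the wild-type embryos carried the driver or were exposed to the inducer is not given in the sources used here. A whole bud holds mesenchyme, its ectodermal cover, vessels, blood and nerve, so in these bulk samples fewer cells of a type and less RNA per cell cannot be told apart.

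The HL bud grows from the flank as mesenchyme wrapped in ectoderm. The apical ectodermal ridge, a thickening at the tip, sends FGF signals that keep the mesenchyme proliferating, and the mesenchyme returns FGF10. Tbx4, Pitx1 and Isl1 give the HL its identity, Prrx1 and Twist1 mark limb mesenchyme, and Hox genes of the A and D clusters pattern the bud along its length. Meis1 and Meis2, homeodomain proteins of the TALE class, act in the proximal bud.

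Values are CPM, the reads of a gene scaled to the library's total, of 13720 genes, already normalised and corrected for the difference between library sets by the authors. Levels of different genes were compared per kb of exon, and ranks by CPM, which also reflect transcript length, are given as such. Summed CPM ran from 754534 in WT 3 to 805762 in WT S_254, and Pearson's r of log2(CPM + 0.5) across genes, which are not independent replicates, was between 0.964 and 0.981 for every pair of libraries. Sequencing depth is unknown, so no counting interval can be given. WT 3 stood apart most often, being the library farthest from the 5-library median in 28.5% of genes, against 15.2% to 19.99% for the others. Xist, the RNA that coats the inactive X chromosome, was at 1172 CPM in WT S_252, 1123 in WT S_254, 1667 in WT 1, 30.9 in WT 3 and 0.515 in WT 4. The Y-linked genes Ddx3y, Eif2s3y, Uty and Kdm5d lay between 54.7 and 92.1 CPM in WT 3 and WT 4 and below 1 CPM in the other 3 libraries. WT 3 therefore held Y-linked transcripts together with Xist well above the level in WT 4. Whether WT 3, labelled as 1 embryo like the others, held RNA of more than 1 embryo was not tested, and this bears on every WT 3 value.

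The genes that define the tissue were present in every library. Tbx4 (chromosome 11, 85886422 to 85916097, GRCm38), a T-box factor of the HL, was at 57.2 CPM in WT S_252, 61.0 in WT S_254, 75.5 in WT 1, 62.8 in WT 3 and 89.9 in WT 4. Pitx1 (chromosome 13, 55825051 to 55836192), the homeodomain factor that specifies HL character, was at 16.9, 18.9, 18.9, 26.9 and 23.3 CPM in the same order of libraries. Prrx1 (chromosome 1, 163245119 to 163313710) was at 389, 399, 569, 347 and 401 CPM. WT 1 was highest for Prrx1, WT 3 for Pitx1 and WT 4 for Tbx4, and no library was lowest for all 3 genes. Meis2 (chromosome 2, 115863064 to 116065839) was at 200.3, 180.1, 232, 229.6 and 239 CPM, with both Ovation libraries below all 3 NEBNext libraries. Meis1 (chromosome 11, 18879817 to 19018985) was at 149.7, 117, 106, 117 and 134.5 CPM, so WT S_254, with its mutant Meis1 allele, lay inside the range of the other 4. Trp63 (chromosome 16, 25683763 to 25892102), the master factor of surface ectoderm, was at 70.4, 85.7, 75.1, 64.5 and 59.8 CPM.

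**Figure D1:**
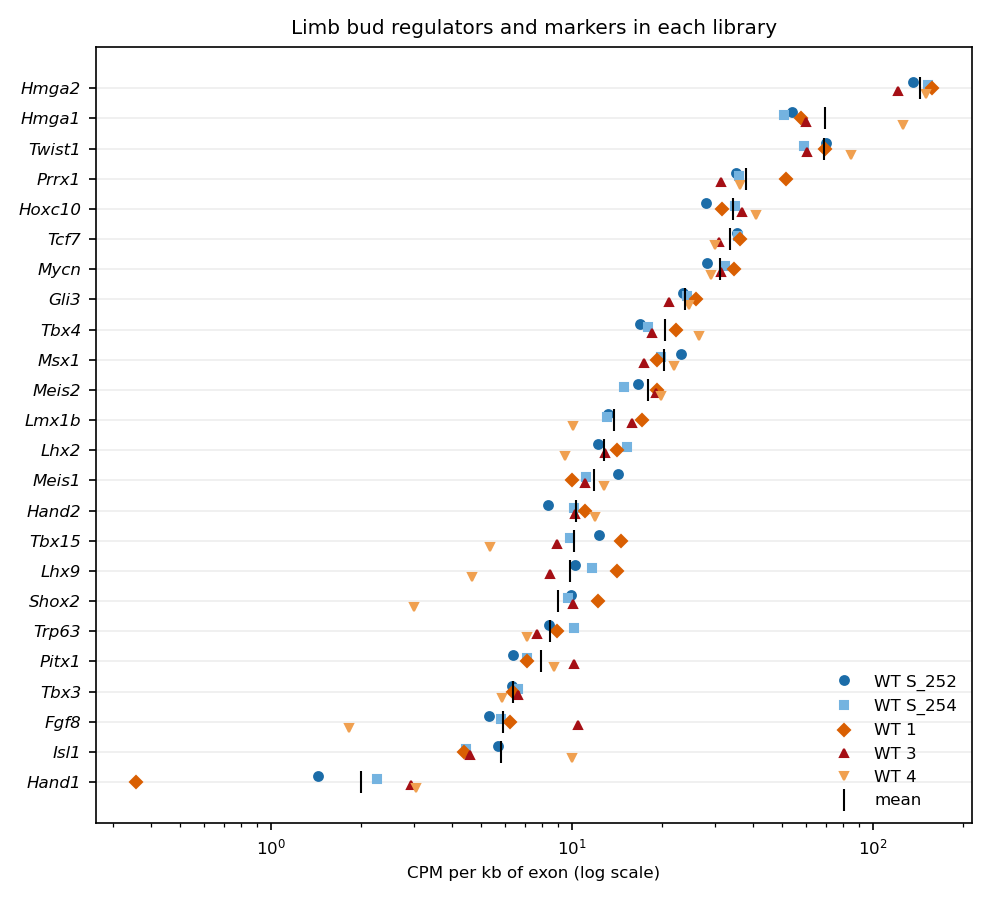
CPM per kb of exon (log scale) of 24 limb bud regulators and markers, with 1 symbol per library and a black bar at the mean of the 5. The libraries lie close together for most genes, while WT 4 sits far below the rest for Shox2 and above them for Hmga1 and Isl1, and WT 1 far below for Hand1.

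Per kb of exon, the most abundant transcription factors of the bud were chromatin and mesenchyme regulators. The lists held 257 measured factors, 161 of them at a mean of 10 CPM or more and 25 at 100 CPM or more. Hmga2, an architectural chromatin protein of growing embryonic cells, led with 143.6 ± 15.01 CPM per kb (SD, n = 5). Hmga1, its paralogue, whose level is uncertain because a near-identical copy is also listed, followed with 69.7 ± 31.5, and Twist1, a basic helix-loop-helix factor of mesenchyme, with 68.8 ± 10.2. Prrx1 came next at 38.0 ± 7.72, then Hoxc10 at 34.4 ± 4.98, Tcf7, a nuclear partner of beta-catenin, at 33.6 ± 2.99, and Mycn, a driver of proliferation, at 31.1 ± 2.60. These 7 genes were among the 10 highest in every library, and 16 genes were in the 10 highest of at least 1 library. The order was loose. Of 20 neighbouring pairs in it, only Twist1 over Prrx1 had ranges that did not overlap. Hmga2 was above Hmga1 in all 5 libraries, while Hmga1 was above Twist1 in only 1 of the 5.

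The HL identity factors were less abundant per kb than Twist1 and Prrx1. Tbx4 reached 20.4 CPM per kb, Pitx1 7.91 and Isl1, an early LIM-homeodomain factor of HL progenitors, 5.84. Isl1 was at 22.6, 17.6, 17.4 and 18.2 CPM in WT S_252, WT S_254, WT 1 and WT 3 and at 39.7 in WT 4. Of the 38 limb mesenchyme factors, all measured, 37 were at 1 CPM or more in every library. Gli3, the main transducer of low Hedgehog signalling, stood at 23.9 CPM per kb, Pbx2 at 27.9 and the FGF-responsive Etv5 at 21.3. Msx1, a BMP target, was at 20.3, Lmx1b, which sets dorsal identity, at 13.9, and Lhx2, a LIM-homeodomain factor of outgrowth, at 12.8. The lowest were Sox5, a partner of Sox9 in cartilage, at 0.917 CPM per kb, Tbx2 at 1.34 and Gli1, a Hedgehog target, at 1.53. The posterior factor Hand2 was at 10.4 CPM per kb.

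The limb mesenchyme factors had a median SD of log2(CPM + 0.5) between libraries of 0.21, against 0.22 over all genes. Of the 38, 34 were at a mean of 10 CPM or more, where SDs are smaller. The median over all genes was 0.18 between 10 and 100 CPM and 0.13 between 100 and 1000 CPM. Tbx3, a T-box factor of the limb margins, varied least, with 42.0, 43.8, 42.3, 44.1 and 39.0 CPM in WT S_252, WT S_254, WT 1, WT 3 and WT 4 (SD 0.07). An SD of 1 or more, a spread of about 1 doubling around the mean, was reached by 1 of the 38, Hand1, and by 1.48% of all genes. Hand1, the sister gene of Hand2, was at 2.86, 4.51, 0.711, 5.83 and 6.08 CPM, and none of the 38 reached that spread once WT 1 was left out. Shox2, a factor of proximal skeleton growth, was at 32.9, 32.1, 40.4 and 33.3 CPM in the first 4 libraries and at 9.89 in WT 4. Lhx9 was at 97.6, 111, 134.5, 80.5 and 44.3 CPM and Tbx15 at 46.1, 37.0, 54.6, 33.6 and 20.1. WT 4 was thus the lowest library for all 3 of these genes. Over the 38 factors it was lowest for 10 and highest for 10, against 18.6% and 20.8% of all genes.

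Hox expression was concentrated in paralogous groups 9 to 11. These 10 genes held 57.9% ± 2.38 (SD, n = 5) of the CPM per kb summed over all 35 measured Hox genes, against 34.4% ± 3.18 for the 22 genes of groups 1 to 8 and 7.68% ± 1.28 for the 3 of groups 12 and 13. Hoxc10, restricted to the posterior body and HL, was highest at 34.4 CPM per kb, followed by Hoxa10 (23.7), Hoxd10 (20.7), Hoxa11 (18.9), Hoxb9 (16.6) and Hoxd13 (16.3). Hoxd13, a gene of the distal and posterior bud, was at 32.9, 50.2, 41.1, 34.3 and 43.3 CPM in WT S_252, WT S_254, WT 1, WT 3 and WT 4. Its A-cluster paralogue Hoxa13, which marks the future autopod, was far lower per kb (2.44) and was at 4.03, 6.01, 5.08, 4.36 and 10.7 CPM. WT 4 was the highest library for Hoxa13, and for 16 of the 35 Hox genes (20.8% of all genes). By cluster, the 11 Hoxa genes summed to 87.4 ± 7.47 CPM per kb, the 8 Hoxd genes to 76.5 ± 8.91, the 7 Hoxc genes to 62.2 ± 7.15 and the 9 Hoxb genes to 41.5 ± 2.26. Ranges overlapped in each of 12 neighbouring pairs of the order, although 9 Hox genes were in the 10 highest of every library. Of the 35 Hox genes 0 had an SD of 1 or more, near the 1.48% of all genes, and their median SD was 0.27 against 0.22 over all genes. The largest was that of Hoxd12 (0.64).

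**Figure D2:**
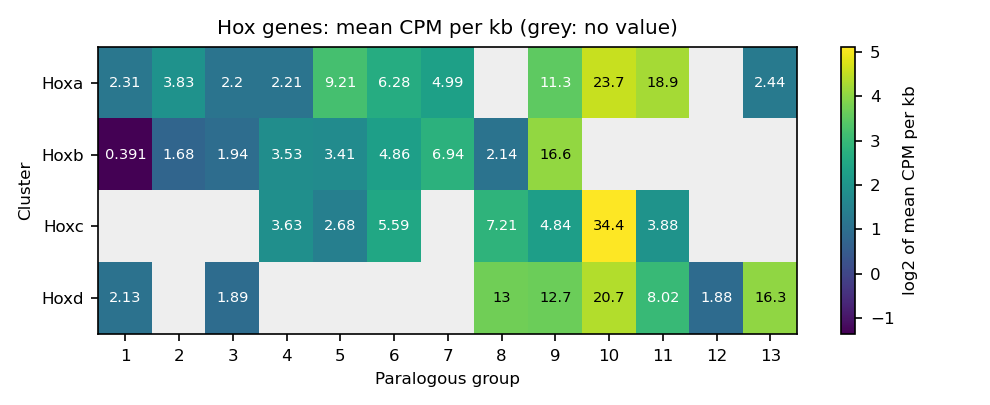
Mean CPM per kb of exon over the 5 libraries for the 35 measured Hox genes, by cluster (rows) and paralogous group (columns), with colour on a log2 scale and the mean printed in each cell. Group 10 is the brightest column, with Hoxc10 at 34.4, and Hoxb1 the darkest cell at 0.391.

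Growth factors of the IGF and midkine families were the most abundant ligands per kb. Among 73 measured ligands, Igf2, a paternally expressed growth factor, was at 310.1 ± 17.2 CPM per kb and Mdk, the heparin-binding factor midkine, at 252.2 ± 35.3. Ptn, the sister of Mdk, followed at 34.5 ± 5.61, then Bmp4 at 20.5 ± 2.64, Pdgfa at 16.4 ± 0.698 and Wnt5a, a non-canonical WNT of the growing tip, at 13.2 ± 1.253. The ranges of Mdk and Ptn, Ptn and Bmp4, and Pdgfa and Wnt5a did not overlap. Fgf10, the mesenchymal signal to the ridge, was named here with its values known, at 33.8, 37.0, 37.6, 25.9 and 38.1 CPM in WT S_252, WT S_254, WT 1, WT 3 and WT 4. Fgf8, the ridge signal in the other direction, was at 7.19, 7.88, 8.42, 14.1 and 2.45 CPM, highest in WT 3 and lowest in WT 4.

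Among receptors and antagonists, a proteoglycan and IGF-binding proteins were highest. Gpc3, a membrane heparan sulfate proteoglycan that binds growth factors, was the highest of 65 receptors at 173 ± 15.5 CPM per kb, well clear of Gas1, a Hedgehog co-receptor, at 45.1 ± 3.71. Tgfbr1 stood at 36.6, Bmpr1a at 34.9, Igf2r, which clears IGF2, at 28.8, Fzd7 at 23.5 and the Hedgehog transducer Smo at 19.9. Of the 18 secreted antagonists, Igfbp5 was highest (51.1), before Igfbp4 (49.0), the BMP-binding Fstl1 (38.2) and the WNT inhibitors Sfrp1 (22.9) and Frzb (15.9). An SD of 1 or more was found for 1 of 73 ligands, 0 of 65 receptors and 0 of 18 antagonists, all near the 1.48% of all genes. The median SDs were 0.30, 0.21 and 0.42, against 0.22 over all genes, and 37, 49 and 10 of these genes were at a mean of 10 CPM or more, where SDs are smaller. The ligand was Wnt2, a canonical WNT, at 9.32, 8.27, 1.42, 6.02 and 12.2 CPM in WT S_252, WT S_254, WT 1, WT 3 and WT 4, with WT 1 low, and the count was 2 without WT S_252 or without WT 3. The summed CPM of the receptors differed by 1.09-fold between the lowest and the highest library and that of the ligands by 1.10-fold.

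The ectodermal layer was read through 18 surface ectoderm and 10 ridge genes. Cldn6, a tight junction protein, led the ectoderm list at 23.0 CPM per kb, with Perp, a desmosome component, at 21.2, Epcam at 14.4, Krt18 at 12.9, Trp63 at 8.47 and the adhesion molecule Cdh1 at 7.72. WT 3 was the highest library for 12 of these 18 genes (24.3% of all genes), among them Cldn6, Epcam, Krt18 and Cdh1 but not Trp63 or Perp. Perp was at 35.0 CPM in WT 3 and at 33.3 to 48.0 in the others. Endoderm and yolk sac markers were also highest in WT 3, and whether the epithelial transcripts there came from ectoderm was not tested. The keratins of simple epithelia moved most, Krt8 being at 10.8, 9.36, 6.15, 31.0 and 16.0 CPM in WT S_252, WT S_254, WT 1, WT 3 and WT 4. In the ridge list, Msx2 (11.2 CPM per kb), Sp6 (8.21), Fgf8 (5.94), Sp8 (4.56) and Rspo2, which amplifies WNT signalling (4.54), were highest, and Dlx6 (0.807) was lowest. Msx2 is also among the limb mesenchyme factors, so its level in whole buds cannot be assigned to the ridge. Of the 10 ridge genes 0 had an SD of 1 or more, near the 1.48% of all genes, and their median SD was 0.38 against 0.22.

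By CPM, with no length correction, the top of the transcriptome was mitochondrial, translational and erythroid. A mean of 1000 CPM or more was reached by 60 genes, 1759 were at 100 CPM or more, 8441 at 10 CPM or more, and 1037 were under 1 CPM. The 10 highest genes held 6.87% ± 0.91 of each library's summed CPM, the 50 highest 15.4% ± 0.976 and the 100 highest 21.2% ± 1.05 (SD, n = 5). mt-Co1, a subunit of cytochrome c oxidase, was first at 12555, 11994, 12149, 8038 and 10664 CPM in WT S_252, WT S_254, WT 1, WT 3 and WT 4. mt-Rnr2, the large mitochondrial rRNA, was at 13346, 14614, 7636, 7937 and 11266 CPM. Eef1a1, the translation elongation factor, came next at 6472 ± 515 CPM, before mt-Rnr1, Npm1 (nucleolar ribosome assembly), mt-Nd1 and the chaperone Hsp90ab1. Hbb-y, an embryonic beta-type globin, ranked 8 by CPM and 4 per kb.

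Imprinted genes were among the highest as well. Mest had 2875 ± 196 CPM, Peg3 2180 ± 216, H19, a maternally expressed long non-coding RNA, 2147 ± 159, and Igf2 1775 ± 98.4. The 21 measured imprinted genes summed to nearly the same CPM everywhere, with 1.07-fold between the lowest and the highest library. The 20 highest by CPM also held Ncl, Hsp90aa1, Eif4g2, Hnrnpa2b1, Hnrnpa1, mt-Cytb, mt-Nd4 and mt-Nd5. The pseudogene Rpl3-ps1 had a mean of 2068 CPM, which was 5.06 CPM without WT 3. Per kb, the 20 highest also took in mt-Cytb, mt-Co2, mt-Nd4, mt-Atp8, mt-Nd2, the globins Hbb-bh1 and Hba-x, Ptma and Tuba1b. Proliferation genes were abundant, Top2a being at 898 ± 58.9 CPM and Mki67 at 802 ± 50.3, and the 20 cell cycle genes had a median SD of 0.12.

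**Figure D3:**
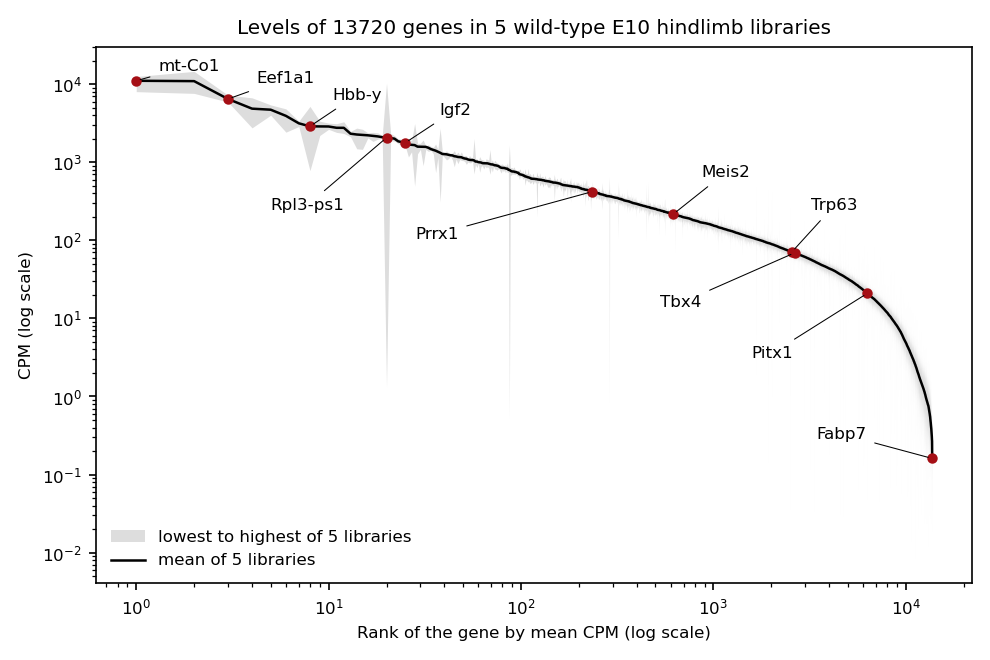
Mean CPM of 13720 genes against their rank (both axes log scale, black line), with grey from the lowest to the highest of the 5 libraries and 11 genes marked in red. The limb factors lie well down the curve, with Prrx1 at 421 CPM and Tbx4 at 69.3, and the grey spike at rank 20 is Rpl3-ps1.

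At the other end, 412 genes were under 1 CPM in all 5 libraries. The table's stated filter asked for 1 CPM in at least 4 of the 11 libraries, while after the set correction 270 genes were under 1 CPM in all 11. The lowest with a full gene symbol were Fabp7, a fatty acid carrier of radial glia (0.161 ± 0.119 CPM, n = 5), the sperm protein gene Zpbp (0.243), Serpine3 (0.245), Tmem91 (0.246), the opioid receptor Oprk1 (0.252), Cbln2 and Pcp4 (both 0.253), Trim17 (0.255), the odorant receptor Olfr1031 (0.262) and mt-Tm (0.268). No value in the 5 libraries was 0, and the lowest was 0.00827 CPM. The part of the correction in such low values was not tested.

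Most genes varied little between the 5 libraries. The values were already corrected for library set, so differences between embryos that followed the set can be missing from these SDs. The median SD of log2(CPM + 0.5) was 0.22, equal to 1.16-fold. It fell with level, from 0.39 for genes under 1 CPM to 0.18 between 10 and 100 CPM and 0.12 at 1000 CPM or more. Rad23b, a DNA repair and proteasome shuttle protein, was the steadiest gene at a mean of 10 CPM or more, at 278, 279, 281, 284.3 and 283 CPM in WT S_252, WT S_254, WT 1, WT 3 and WT 4 (SD 0.01). Leprot, the replicative helicase subunit Mcm7, Gmeb1, the uridine kinase Uck2, Lsm8 of the splicing machinery, Kpna6, Ppp4r3a, Mrpl10 and the actin-capping Capzb completed the 10 steadiest. Gapdh had an SD of 0.05, and Actb, another usual reference gene, 0.19.

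An SD of 1 or more was reached by 203 genes (1.48%), 62 of which had a mean of 10 CPM or more (0.735% of the genes at that level). These 62 comprised 30 pseudogenes, 12 genes of the erythroid list, Xist with the 4 Y-linked genes, and 15 others. The split followed the lists, so the 15 can include erythroid genes that are not on the erythroid list. The 15 were Col1a1, Postn, Afp and Apob, all highest in WT 3, the gene copies Eno1b, Amd2 and Rps27rt, the genes Slc30a10, Ermap, Ank1, Csf2rb and Mt2, which were highest in WT S_254 and lowest in WT S_252 or WT 4, and Btg3, Rbm15b and Gm14288.

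**Figure D4:**
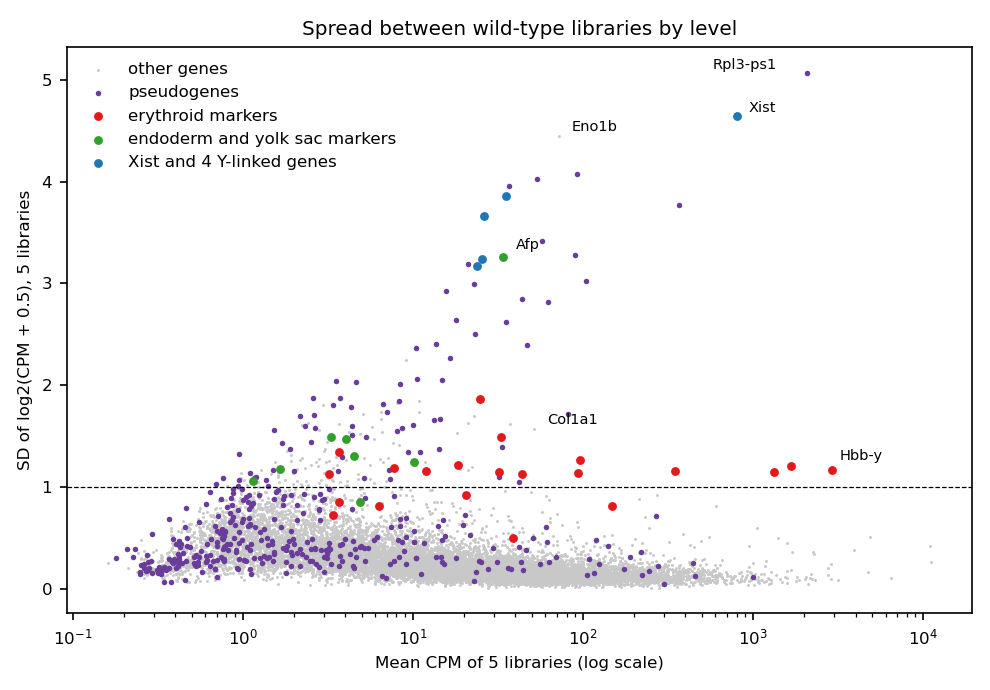
SD of log2(CPM + 0.5) over the 5 libraries (linear axis) against mean CPM (log axis) for 13720 genes, 1 point each, with pseudogenes in purple, erythroid markers in red, endoderm and yolk sac markers in green and Xist with the Y-linked genes in blue. The dashed line marks an SD of 1, above which 203 genes lie, with Rpl3-ps1 at 5.07 the highest.

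Erythroid genes were the largest group of variable genes after the pseudogenes at a mean of 10 CPM or more. At this stage blood in the bud carries primitive red cells from the yolk sac, which make embryonic globins. Of 21 measured erythroid markers, 15 had an SD of 1 or more (71.4%, against 1.48% of all genes), and 10 to 16 did so with 1 library left out, the 10 being without WT 4. Hbb-y (chromosome 7, 103851749 to 103853216) was at 1252 CPM in WT S_252, 5198 in WT S_254, 3069 in WT 1, 4136 in WT 3 and 782 in WT 4. Hba-x, the embryonic alpha-type globin, was at 494, 3133, 1839, 2268 and 569 CPM, and Hbb-bh1 at 963, 2729, 1235, 1391 and 308. WT S_252 and WT 4 were both below each of the other 3 libraries for all 21 markers, an order that 10.4% of all genes showed. The order was taken from these same markers, which moved together, so the count is a description and not a test. WT S_254 was the highest library for 19 of the 21 (16.0% of all genes).

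The same order held outside the globins. Slc4a1, the red cell anion exchanger, was at 24.4, 191, 118, 115 and 34.2 CPM, Alas2, the erythroid enzyme of haem synthesis, at 16.9, 75.8, 52.7, 59.1 and 12.98, and Gata1, the master erythroid factor, at 0.393, 8.28, 4.05, 4.602 and 1.11. The 14 markers other than globins summed to between 178 and 793 CPM, a 4.45-fold range, and the 7 globins to between 1806 and 11896 CPM, a 6.59-fold range. The globins took 0.234% of summed CPM in WT 4 and 1.48% in WT S_254. Both library sets held a low and a high library. The values were already corrected for set, so this arrangement says nothing on the part of library set, which was not tested. WT S_252 and WT 4 were also the lowest libraries for the summed CPM of macrophage (7.89 and 6.23), neuronal (13.9 and 9.15) and muscle precursor markers (54.4 and 70.9). The endothelial sum differed by 1.33-fold and was lowest in WT 3 and next lowest in WT S_254. The part of blood content in these differences was not tested.

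The embryonic share of the globins changed less than their amount. Embryonic Hbb-y and Hbb-bh1 made up 99.0% ± 0.40 (SD, n = 5) of the beta-type CPM per kb, and Hba-x 75.2% ± 2.40 of the alpha-type, the remainder being the adult-type Hba-a1 and Hba-a2, whose near-identical sequences make their separate values uncertain. Hbb-y took 67.3% ± 7.30 of the embryonic beta-type pair. The ratio of alpha-type to beta-type differed more, by 2.196-fold, from 0.205 in WT S_252 to 0.450 in WT 4, which were the 2 libraries with the least globin.

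The upstream sequences of 3 of these co-varying genes are shown because their levels moved together across the embryos. They are the 250 bases before the annotated start, from RefSeq (GRCm38.p6), 5′ to 3′ on the gene's strand. Capitals mark GATA-type letters (GATA with A or T before it and A or G after it), CCACCC and CCAAT, each searched on both strands, where the matches can overlap each other.
Hbb-y (chr7:103853208-103853457, minus strand): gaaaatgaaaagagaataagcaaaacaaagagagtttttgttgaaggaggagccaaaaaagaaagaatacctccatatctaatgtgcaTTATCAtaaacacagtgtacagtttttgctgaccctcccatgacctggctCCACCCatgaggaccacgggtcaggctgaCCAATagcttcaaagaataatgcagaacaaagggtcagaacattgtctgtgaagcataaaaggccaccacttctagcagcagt
Hba-x (chr11:32276350-32276599, plus strand): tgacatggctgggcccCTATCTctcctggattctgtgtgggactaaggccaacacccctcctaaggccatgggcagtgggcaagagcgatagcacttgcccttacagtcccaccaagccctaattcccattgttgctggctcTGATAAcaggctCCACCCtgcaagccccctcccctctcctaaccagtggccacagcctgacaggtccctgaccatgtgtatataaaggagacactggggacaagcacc
Alas2 (chrX:150547167-150547416, plus strand): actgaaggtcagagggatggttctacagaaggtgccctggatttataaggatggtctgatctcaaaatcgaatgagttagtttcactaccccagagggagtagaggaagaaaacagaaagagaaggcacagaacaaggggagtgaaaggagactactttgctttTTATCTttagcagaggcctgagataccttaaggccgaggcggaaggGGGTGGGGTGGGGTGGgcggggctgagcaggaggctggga

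GATA1 and KLF1, regulators of erythroid genes, are known to bind GATA and CACCC motifs. Upstream sequence was matched for 14 of the 21 markers. GATA-type letters stood in 11 of the 14, against 26.5% of 32851 RefSeq upstream sequences of the same length, CCACCC in 10 against 28.1%, and CCAAT in 7 against 33.8%. The upstream sequences of Hba-a1 and Hba-a2 are the same stretch, slightly shifted, so the 14 are not independent. The list was made of known erythroid genes, so these shares are no test. A match is a description of letters and not of binding.

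WT 3 differed by transcripts of other embryonic tissues. All 8 measured endoderm and yolk sac markers were highest in WT 3, summing to 254.02 CPM there and to 13.3, 25.4, 13.8 and 12.1 CPM in WT S_252, WT S_254, WT 1 and WT 4. Afp, the alpha-fetoprotein of yolk sac and liver, was at 166 CPM in WT 3 and at 1.17, 2.98, 0.25 and 0.204 in the others. Apob was at 29.7 CPM in WT 3 against 2.38 to 7.24, the retinol carrier Rbp4 at 14.7 against 1.22 to 3.39, and the thyroxine carrier Ttr at 12.2 against 0.279 to 1.52. WT 3 lay above the range of the others for all 4 genes. An SD of 1 or more was found for 7 of the 8 markers, against 1.48% of all genes, and for 1 of them without WT 3. The mean summed CPM of the list was 63.7 with WT 3 and 16.1 without.

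Somite markers, 4 of 6 muscle precursor markers and several matrix genes were also highest in WT 3. All 6 somite and sclerotome markers peaked there, Meox1 being at 12.1, 14.05, 21.1, 50.4 and 11.1 CPM in WT S_252, WT S_254, WT 1, WT 3 and WT 4, and Pax1 at 0.55, 0.59, 5.60, 7.09 and 0.287, where WT 1 was high as well. Pax3, a factor of migrating muscle precursors, was at 3.37, 9.02, 10.97, 15.9 and 2.84 CPM. Col1a1, the main fibrillar collagen of dermis and bone, was at 15.3, 27.4, 9.29, 173 and 33.5 CPM, and 17 of 30 collagens were highest in WT 3 (24.3% of all genes). Lum, a keratan sulfate proteoglycan of fibroblasts, was at 41.5 CPM in WT 3 against 0.328 to 1.796. An SD of 1 or more was found for 3 of 30 collagens (Col1a1, Col6a3 and Col12a1) and 2 of 6 somite markers (Foxc2 and Pax1). It was also found for 2 of 6 muscle precursor markers (Pax3 and Myf5), against 1.48% of all genes. These somite and muscle precursor genes had means between 1 and 10 CPM, where 3.11% of genes reached that SD. Without WT 3 the counts of the 3 lists were 0, 1 and 0. The number of such collagens was 5 without WT S_254 or without WT 4, and that of such muscle precursor markers was 1 without WT S_252 or without WT 4. WT 3 was also the lowest library for 11 of 19 mitochondrially encoded genes (25.6% of all genes). Intermediate mesoderm and coelomic markers went another way, with 6 of 8 highest in WT 4, among them Wt1 and Bnc1, and 1, Upk3b, highest in WT 3. The part of tissue next to the bud in these levels was not tested.

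Other libraries carried smaller marks. In WT 1, all 6 platelet and megakaryocyte markers were highest (19.0% of all genes), Pf4 being at 5.996, 14.5, 14.9, 2.89 and 4.23 CPM in WT S_252, WT S_254, WT 1, WT 3 and WT 4, close to WT S_254. WT 1 was also highest for 12 of 13 hypoxia and glycolysis genes, among them Bnip3, a mitophagy gene, at 51.3, 73.4, 117, 32.2 and 46.3 CPM and Ldha at 1258, 1352, 1410, 877 and 1085. Ribosomal protein genes were lowest in WT 4 in 41 of 85 cases (18.6% of all genes) and highest in WT 3 in 41, with sums differing by 1.18-fold. Tgfb2, named with its values known, was at 50.5 CPM in WT 4 and 9.74 to 16.0 in the others. Markers of macrophages (6 measured, none above a mean of 2.61 CPM), of glia and neural crest (4) and of neurons (6) were low throughout, and Dcx, a protein of young neurons, was at 5.19, 6.16, 8.91, 4.95 and 0.463 CPM.

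**Figure D5:**
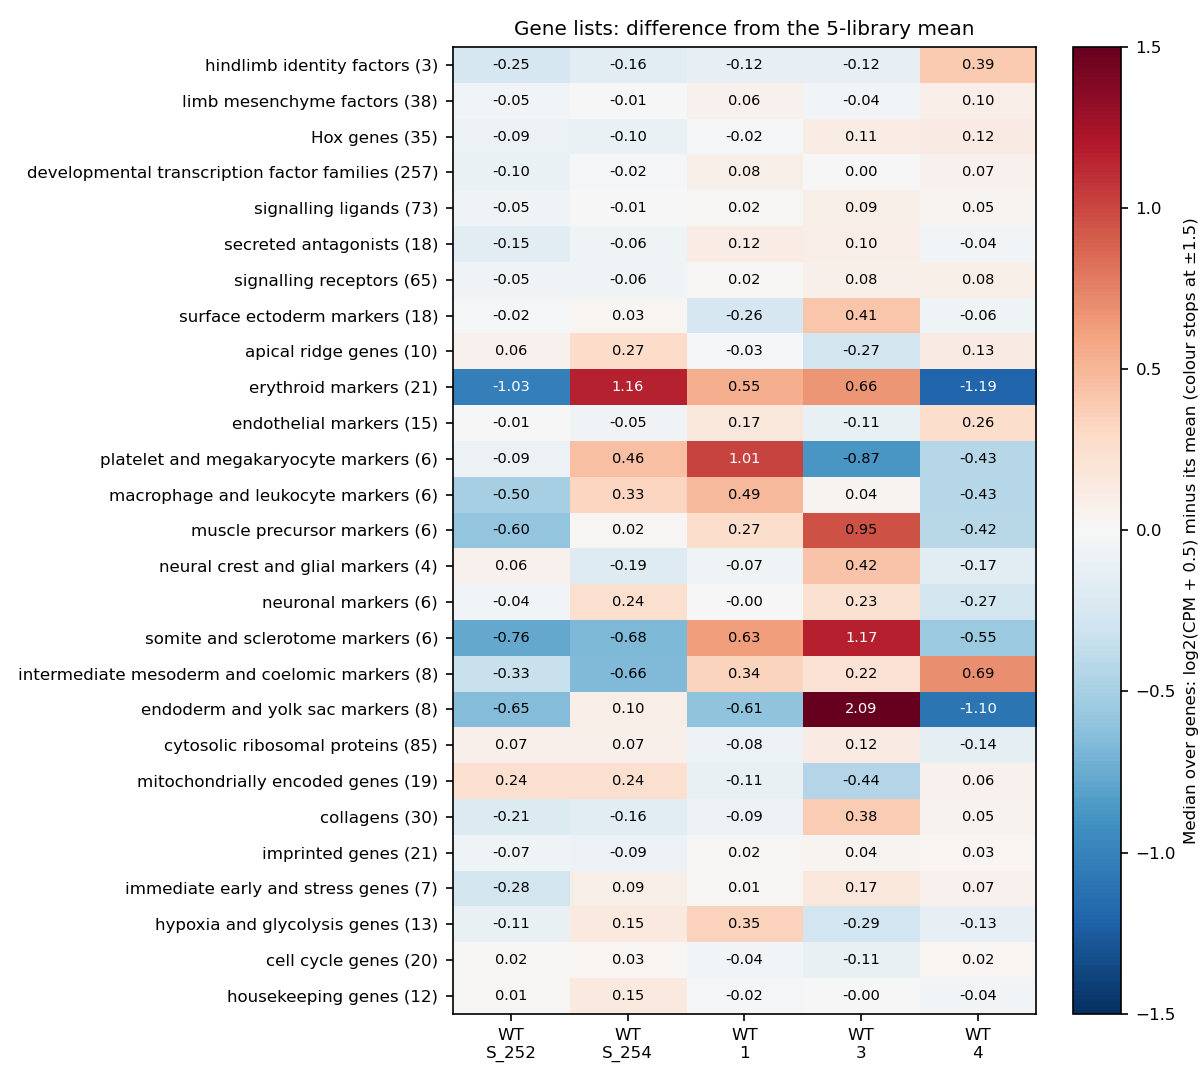
Median over the genes of each list of log2(CPM + 0.5) minus the gene's own 5-library mean, for 27 lists (rows, measured genes in brackets) and 5 libraries (columns), red above and blue below the mean. Erythroid markers run from -1.19 in WT 4 to 1.16 in WT S_254, endoderm and yolk sac markers reach 2.09 in WT 3, and limb, Hox, ligand and receptor lists stay within 0.39.

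Pseudogenes made up 390 of the 13720 genes (2.84%) by annotated class or name, but 72 of the 203 genes with an SD of 1 or more and 22 of the 30 most variable genes. The share reaching that SD was 18.5% of pseudogenes and 0.983% of other genes. Processed pseudogenes are inserted copies of spliced transcripts, so a read from the parent gene can match both. Of 72 pseudogenes named after a gene of the table, the median identity to that gene's transcripts was 99.4%, and a median of 64.2% of their windows of 75 bases, the read length of the Ovation set, were found letter for letter in the parent.

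In some pairs the pseudogene and the parent moved in opposite directions. Rpl34-ps1 was at 81.6, 78.5, 0.0331, 0.0734 and 109 CPM in WT S_252, WT S_254, WT 1, WT 3 and WT 4, and Rpl34 at 192, 173, 261, 273 and 188, so the pair summed to 273, 251.8, 261, 273 and 297. The parent was highest in the 2 libraries in which the copy was near 0. The SD was 1 or more for 17 of the 72 pseudogenes, 0 of their parents and 1 of the sums, where the sum must follow the parent in pairs whose parent is far more abundant. The retrogene Eno1b was at 0.168, 93.3, 0.0346, 0.0779 and 267 CPM while its sum with Eno1, a glycolytic enolase, differed by 1.21-fold. Other sums were not steady. That of Rps12l1 with Rps12 differed by 6.32-fold, of Rps27rt with Rps27 by 5.43-fold, of Rps13-ps2 with Rps13 by 4.10-fold and of Rpl15-ps3 with Rpl15 by 2.43-fold. Hmga1, second among the transcription factors by mean only, was at 115, 108, 123, 128 and 267 CPM. Its copy Hmga1b was at 176, 198, 289, 331 and 69.6, with sums of 291 to 458 CPM. The high Hmga1 of WT 4 thus met a low Hmga1b, and both values are uncertain. The copies not named as pseudogenes were chosen with their values known.

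The 1 pair whose sum kept an SD of 1 or more was Rpl3-ps1 with Rpl3, a protein of the large ribosomal subunit. Rpl3-ps1 (chromosome X, 13202571 to 13203780) was at 8.37, 7.71, 1.32, 10318.5 and 2.85 CPM in WT S_252, WT S_254, WT 1, WT 3 and WT 4. Rpl3 (chromosome 15, 80077791 to 80083406) was at 754, 725, 678, 201 and 679.8 CPM. In WT 3 the pseudogene was therefore high and the parent low, and the sum was 15.5 times its lowest value. The 2 transcripts differ at 2 of 1210 aligned bases, without gaps. The start of the coding sequence of Rpl3 (bases 1 to 90) and the matching bases 2 to 91 of the pseudogene are shown because 88.3% of the 75-base windows of the pseudogene occur in the parent. Both are from GENCODE M21 transcripts on GRCm38, and capitals mark the mismatch.
Rpl3: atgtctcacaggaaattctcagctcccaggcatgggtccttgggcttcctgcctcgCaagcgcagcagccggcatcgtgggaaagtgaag
Rpl3-ps1: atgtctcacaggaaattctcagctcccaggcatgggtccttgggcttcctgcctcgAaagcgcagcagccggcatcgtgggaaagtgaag

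Other pseudogenes stood out in 1 library each. Gm13456 was at 461 CPM in WT 4 and no higher than 2.33 elsewhere, Rpl15-ps3 at 435 in WT 4 against 0.97 to 6.13, Rps13-ps2 at 500.03 in WT S_252 against 1.91 to 7.84, and Gm10123 at 0.822 in WT 3 against 275 to 651. Among pseudogenes at a mean of 10 CPM or more, WT 1 was under 0.5 times the lowest other library for 11, while WT 3 was over 2 times the highest other library for 6.

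Few genes were called between the library sets, while 123 of 13720 showed a difference in mean log2(CPM + 0.5) of 1 or more. With so few libraries and values already corrected for set, few calls do not show that the sets agree. The authors had removed the set difference, and limma on log2(CPM + 0.5), 2 Ovation against 3 NEBNext libraries, called 1 of 12941 genes (0.00773%) at a Benjamini-Hochberg adjusted p under 0.05, with 704 at an unadjusted p under 0.05. The gene was the processed pseudogene Gm13461, at 2.54 and 2.71 CPM in the Ovation and 15.1, 16.3 and 18.3 CPM in the NEBNext libraries (log2 difference 2.44 ± 0.23 SE, adjusted p = 0.0165). It was lost at a mean of 10 CPM or more (adjusted p = 0.0700). Without 1 library between 0 and 8 genes were called, Gm13461 losing its call without WT S_252 (adjusted p = 0.134) and without WT 3 (adjusted p = 0.138), all by limma. Without WT 1, the called genes included the Y-linked Ddx3y, Eif2s3y, Kdm5d and Uty. In that fit the Ovation libraries were labelled female and the remaining NEBNext libraries held Y-linked transcripts. Sex and library set therefore could not be told apart in it. Litter, labelled for the Ovation set alone, and library kit cannot be told apart here.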

How the data were processed

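The authors deposited 1 table of CPM for all 11 libraries. By their methods, reads were trimmed with cutadapt, reads under 30 bases were discarded, expected counts were obtained with RSEM on GRCm38, and the CPM were scaled by TMM and corrected for library set with ComBat. The submitters' processing notes name CASAVA 1.8.2, cutadapt 1.3 and RSEM 1.2.3. The methods name an Illumina HiSeq and the labels of the Ovation libraries a Genome Analyzer. The correction can shift low values and differences between sets. Read totals were not used here, so the precision of single values is unknown.

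From the 5 wild-type columns, the mean, SD and rank of each gene were computed, with the SD of log2(CPM + 0.5) as the measure of variation (Python 3.11.15, numpy 2.4.6, pandas 2.3.3). Exon lengths came from GENCODE M21 and covered 13704 genes. Library sets were compared with limma 3.58.1 in R 4.3.3, with a trended variance, over genes that reached 1 CPM in 2 or more of the 5, tested on simulated data first. Nothing says that the embryos of the NEBNext set came from separate litters, and p-values measure the spread between these libraries only. Pseudogene transcripts were aligned with biopython 1.88.

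Named genes were the tissue markers, the 20 highest by CPM and by CPM per kb, the 10 lowest, the most and least variable genes, and the highest members of 29 gene lists (28 with a measured member). The members and lists were chosen with earlier results of these data known. Alternatives were other pseudocounts, level filters, scalings, measures of spread and leaving out each library. Some members of the lists are not reported here.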

Additional observations from a re-analysis of the deposited data

Results flagged for a closer look

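In the values below, 1 library was separated from the other 4 by more than 0.71 of the whole range (Dixon's 95% critical value for 5 samples). Chance sets apart about 1 in 20 groups, and 781 of all 13720 genes (5.69%) met the same limit, so single genes here are descriptions.

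WT 3 held more of them than any other library. The endoderm and yolk sac markers summed to 254.02 CPM in WT 3. Lum, a matrix proteoglycan, was at 41.5 CPM there, Upk3b, a gene of mesothelium whose list was highest in WT 4 for 6 of 8 genes, at 12.8, Nefm, a neurofilament, at 3.202, and Twist2, a dermal and mesenchymal factor, at 11.04. mt-Nd2, a subunit of respiratory complex I, was low in WT 3 at 737 CPM. Of the pseudogenes, Rpl3-ps1 was at 10318.5 and Gm4204 at 63.4 CPM in WT 3, while Rpl14-ps1 (0.261) and Gm10123 (0.822) were low.

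In WT 4, Shox2 was at 9.89 CPM, Hmga1 at 267, Dcx at 0.463 and Oprk1 at 0.557. The pseudogenes Rpl15-ps3 (434.6 CPM) and Gm13456 (460.6) were high there and Gm10233 (0.0664) was low. In WT 1, Hoxa10 stood at 93.98 CPM and the pseudogene Gm14681 at 84.8, Rps25-ps1 was low at 0.180, and Capzb, among the steadiest genes, was at 116 CPM. In WT S_252, the ridge genes Sp8 and Dlx5 were at 26.1 and 2.68 CPM and Rps13-ps2 at 500.03. In WT S_254, Plvap, a gene of fenestrated endothelium, was at 6.95 CPM.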

How the results depend on the processing

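The share of summed CPM in the 50 highest genes was 16.5% in the Ovation libraries alone and 30.5% on CPM per kb, and between 15.1% and 15.7% with 1 library left out. The number of genes with an SD of 1 or more, 203, was 535 with a pseudocount of 0.1, 94 with a pseudocount of 2, 62 at a mean of 10 CPM or more, 55 at 1 CPM or more in every library and 404 by a range of 2 or more in place of the SD. It ran from 185 to 239 with 1 library left out. Summing pseudogenes with their parents, chosen after seeing the data, gave 187. For library set, 0 genes were called by limma at a mean of 10 CPM or more (596 at an unadjusted p under 0.05) and 3 with robust variance (Gm13461, mt-Co3 and Galnt2). With 1 library left out, between 0 and 8 were called: 0 without WT S_252 (400 at an unadjusted p under 0.05) and 8 without WT 4. Without WT S_252 or WT S_254 the lone Ovation library was assumed to vary like the others. The genes called without WT 1 included the Y-linked Ddx3y, Eif2s3y, Kdm5d and Uty, in a fit where sex and library set could not be told apart. Without WT 3, the mean of Rpl3-ps1 fell from 2068 to 5.06 CPM and the mean summed CPM of the endoderm and yolk sac markers from 63.7 to 16.1. The causes were not tested. No paired analysis was possible because the wild-type libraries were compared only with each other. With 5 libraries, unknown depth and values already corrected for set, differences smaller than the spread between embryos could not be resolved.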
